A study of Mus musculus with 6 samples.

Results

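The arthritic and the healthy synovium of wild-type mice were compared across all cell classes, with 1 pooled library a side. Cells were taken by library and by a limit on mitochondrial transcripts, which had to make up 10% or less of a cell's unique molecular identifiers (UMIs, the tags that count each captured transcript once). This gave 2917 healthy and 2396 arthritic cells, 5313 of the 18077 cells that pass the same limit in the 6 libraries of the series. Per the labels both groups are wild type and differ in disease state alone: the healthy group had no arthritis, and the arthritic group had received serum of K/BxN mice. For each library the knee synovium of 10 mice was pooled, viable cells of every type were sorted together, and 3' droplet sequencing was run on 7000 loaded cells. The labels used here give no strain, age or time after serum. The other libraries are a healthy and an arthritic Notch3 knockout and arthritic mice given an isotype control or an anti-Notch3 antibody, since the study asked what Notch3 does in synovial fibroblasts. Of these, the isotype library is set beside the results as a further arthritic library, and the knockout pair as a further healthy and arthritic pair. Ifi202b, an interferon-inducible gene whose expression is known to differ between mouse strains, was at 35.7 CPM (UMIs per 1000000) in the healthy and 48 CPM in the arthritic wild-type library, at 0.0486 CPM in the isotype library, and at 0.0427 and 0 CPM in the knockout pair. Whether the libraries differ in strain was not tested, and this bears on each isotype and knockout value set beside the wild-type pair.

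Serum of K/BxN mice carries autoantibodies that form immune complexes in the joint and draw in neutrophils and monocytes through Fc receptors and complement. The synovium has a thin lining of fibroblasts and macrophages that faces the joint fluid and secretes lubricin (Prg4), and a sublining of other fibroblasts around vessels, fat and nerves. In inflamed joints, fibroblasts are known as a source of chemokines and matrix-degrading enzymes, resident macrophages form a barrier at the surface, and recruited monocytes become macrophages in the tissue.

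The libraries held 23627904 (healthy) and 12017317 (arthritic) UMIs, with medians of 7561 and 3988 UMIs per barcode, so levels are given as UMIs of a gene per 1000000 UMIs of the same cells (CPM). Ranges in parentheses are exact 95% Poisson intervals for levels and exact Clopper-Pearson intervals for shares, and they cover counting error only. With 1 library a side there is no replicate, no test and no p-value: a gene was called higher or lower at a size of 2-fold, with at least 50 UMIs over both libraries. In such sums, fewer transcripts per cell and fewer cells that express a gene cannot be told apart. The barcodes carry different run tags in the healthy and the arthritic library, so a batch cannot be told apart from the disease. Only 5 barcodes were shared between the libraries, and 25 of 5313 cells (0.471%) were marked as doublets and left out. Haemoglobin Hbb-bs was at 2330.2 CPM over the healthy and 0.169 CPM over the arthritic library, so red cell RNA was read almost only in the healthy one. Notch3 itself was read in both, at 4.96 (4.09 to 5.96) and 5.58 (4.32 to 7.1) CPM.

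The cell mix differed in the direction of fewer fibroblasts and more myeloid cells in arthritis. Fibroblasts made up 61.3% (59.5 to 63.1) of healthy and 43.6% (41.6 to 45.6) of arthritic cells, and myeloid cells 26.2% (24.7 to 27.9) and 42.5% (40.5 to 44.5). Counted by transcripts the myeloid part was nearly level, at 24.0% of healthy and 25.9% of arthritic UMIs, and the median myeloid cell held 6949.5 UMIs in the healthy and 2747 in the arthritic library. Endothelial cells were 5.37% (4.58 to 6.26) and 5.74% (4.84 to 6.75), a difference within counting error that changed sign to -0.0997 percentage points with a 5% mitochondrial limit and to -0.101 without the 3% highest doublet scores. T and NK cells numbered 50 and 71, cells of the B lineage 83 and 1, and erythroid cells 19 and 0. In the isotype library, fibroblasts were 68.4%, myeloid cells 19.7% and endothelial cells 7.67% of cells, so its myeloid share lay below that of the healthy wild type.

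Each class was then split by small panels of genes that leave out chemokine, acute-phase and interferon genes. A cell, thinned to 1500 UMIs so that depth is equal, entered a gate if it had at least 2 UMIs of 1 panel and more than of any other. A gate share moves with the number of cells and with the level of its panel genes in a cell, and these cannot be told apart. The lining gate (Clic5, Tspan15, Hbegf, Col22a1, Rab37, Htra4) held 139 of 1770 healthy fibroblasts, 7.85% (6.64 to 9.21), and 257 of 1008 arthritic ones, 25.5% (22.8 to 28.3). Its UMIs were mostly of Htra4 (48.9% and 49.8%) and Hbegf (32.2% and 32.1%) in both libraries. The Sfrp4 gate (Sfrp4, Fbln7), the main healthy sublining group, was 39.3% (37 to 41.6) and 21.3% (18.8 to 24). The Smoc2 gate (Smoc2, Ccl11) was 10.5% and 4.07%, the Myoc gate (Myoc, Dkk2, Scg3) 6.27% and 0.992%, the Pi16 gate (Pi16, Dpp4 and 4 others) 9.83% and 13.3%, and the tendon-like gate 5.2% and 4.37%. The lining-gated cells of the libraries also lay in different clusters. Of the healthy ones 88 (63.3%) were in a cluster led by Clic5, and of the arthritic ones 76 were there. A cluster led by Saa3, Hp and Cxcl5 held 164 (63.8%) of the arthritic ones. Over all cells, before cells marked as doublets were left out, the Clic5 cluster held 92 healthy and 90 arthritic cells. The libraries held 1770 healthy and 1008 arthritic fibroblasts deep enough to gate. As a share of these, lining-gated cells of the Clic5 cluster were more in arthritis, not fewer. The Saa3-led cluster held the larger part of the arthritic lining-gated cells. The Saa3-led cluster also held 41.4% of the arthritic Sfrp4-gated cells and none of the healthy ones. Of the healthy Sfrp4-gated cells 44.7% were in a cluster led by Cfd and Car3 and 26.6% in one led by Sfrp4 and Igfbp6. Pi16-gated cells had the same main cluster in both libraries, with 73% of healthy and 63.4% of arthritic cells.

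Among myeloid cells the gates changed places. The resident macrophage gate (Lyve1, Vsig4, Folr2, Timd4, Cd163) held 405 of 750 healthy cells, 54% (50.4 to 57.6), and 67 of 785 arthritic cells, 8.54% (6.68 to 10.7). The monocyte gate (Ly6c2, Plac8, F10) held 22 healthy cells, 2.93% (1.85 to 4.41), and 300 arthritic cells, 38.2% (34.8 to 41.7). The Trem2 gate (Trem2, Ms4a7) was 5.73% (4.18 to 7.65) and 23.2% (20.3 to 26.3), and the Cd209a gate (Cd209a, Mgl2, Clec10a) 19.2% and 3.18%. Cells that met no panel were 17.9% and 25%. In endothelium the capillary gate (Rgcc, Gpihbp1, Cd300lg) was 60.3% (51.2 to 68.9) and 24% (16.9 to 32.3), and the venous gate (Ackr1, Vwf, Nr2f2) 13.5% (8.06 to 20.7) and 29.5% (21.8 to 38.1). Too shallow to be gated were 12 healthy and 229 arthritic myeloid cells, so the arthritic gate shares describe the deeper cells. Of the 229, 198 (86.5%) lay in the cluster led by Ms4a7, Apoe and Trem2. Before cells marked as doublets were left out, that cluster held 27 healthy, 512 arthritic and 403 isotype cells, and the cluster led by Plac8 and Ly6c2 held 20, 283 and 49, so by clusters the Trem2 group was the larger in both arthritic libraries. Healthy Trem2-gated cells were 48.8% in a cluster led by Vsig4 and Lyve1 and 23.3% in the Trem2 cluster, which held 90.7% of the arthritic ones. Isotype myeloid cells were 10.6% resident, 49.2% Trem2 and 9.47% monocyte-gated.

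**Figure D1:**
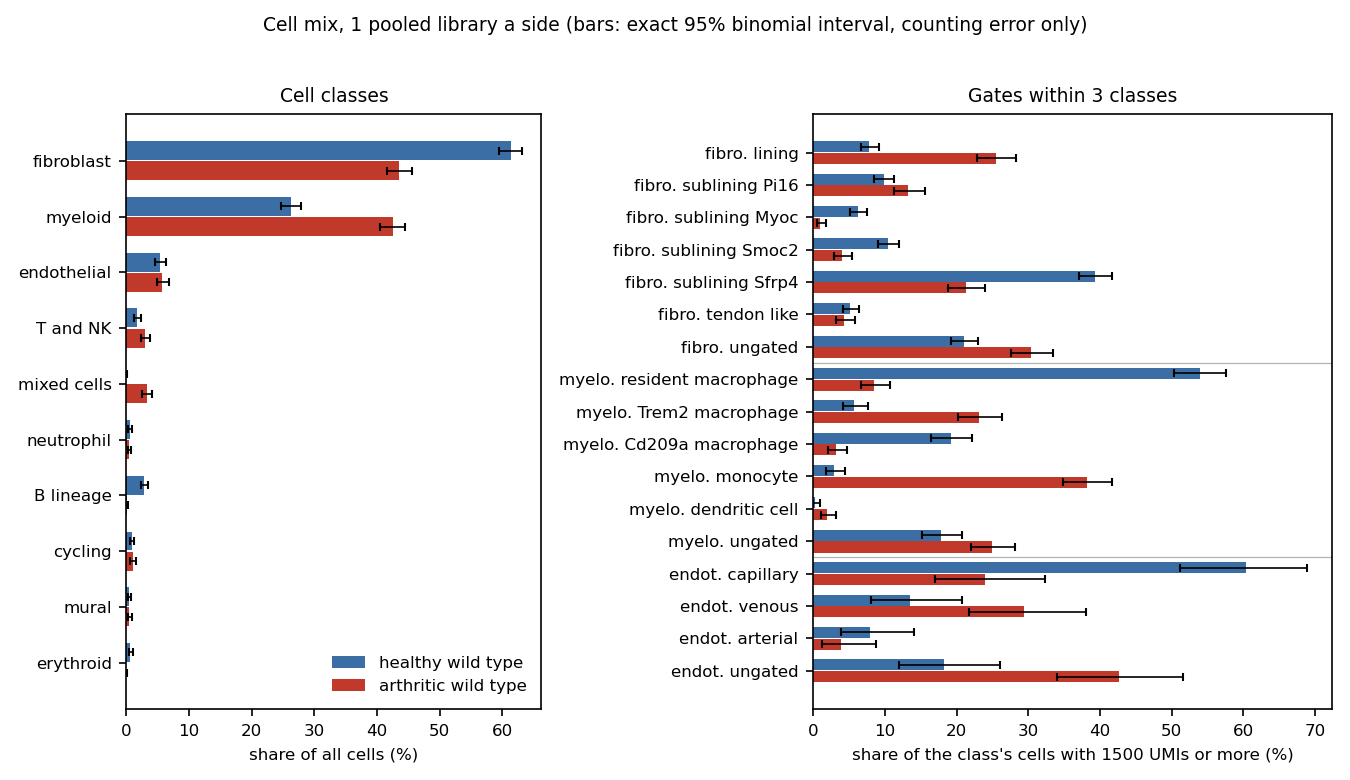
Share of all cells by class (left, percent) and share of a class's cells with 1500 UMIs or more by gate (right, percent) in the healthy (blue) and arthritic (red) wild-type library, with exact 95% binomial intervals for counting error only. The myeloid bars show the exchange of resident for monocyte-gated cells (54% to 8.54% and 2.93% to 38.2%), and the fibroblast bars the larger lining gate (7.85% and 25.5%).

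To separate this change of mix from change inside the gates, the level of each gene over a class was written as the sum over gates of the gate's share of UMIs times the gene's level there. Putting arthritic shares on healthy levels gives the ratio from mix alone, and arthritic levels on healthy shares the ratio within gates. Ungated cells and cells too shallow to gate each counted as a gate here, and a change of mix inside them counts as within gates. Ungated cells held 20.6% of healthy and 32.3% of arthritic fibroblast UMIs, 16.4% and 23.3% of myeloid and 25.2% and 45.8% of endothelial UMIs. Of 10894 fibroblast genes, 561 (5.15%) were at least 2-fold higher and 789 (7.24%) at least 2-fold lower in arthritis. Leaving out panel genes, 451 of 556 higher genes (81.1%) and 568 of 779 lower ones (72.9%) were past 2-fold the same way within gates, and 25 and 1 by mix alone. By gate, 6.86% of genes were higher and 6.82% lower in the lining gate, 3.61% and 5.45% in the Pi16 gate, 4.42% and 7.08% in the Sfrp4 gate and 5.71% and 7.89% in ungated fibroblasts. Endothelial cells gave a like picture: of 4007 genes 313 (7.81%) were higher and 432 (10.8%) lower, with 83.6% and 81.4% past 2-fold within gates and 0 and 2 genes by mix alone. In myeloid cells 490 of 8658 genes (5.66%) were higher and 1356 (15.7%) lower, and mix weighed more: 28.6% of the higher and 19.6% of the lower genes were past 2-fold by mix alone, and 47.1% and 44.2% within gates. The myeloid split of higher and lower depends on scaling, since the median gene lay at -0.32 log2 by total UMIs: TMM scaling gave 741 higher and 797 lower genes. Over the whole library, 707 of 12436 genes (5.69%) were higher and 1062 (8.54%) lower, of which 60.9% and 63.1% were past 2-fold within strata and 24.9% and 6.79% by mix alone. All of these within-gate shares depend on how finely cells are divided. With unsupervised clusters, which were formed on these same genes, in place of the gates, the genes past 2-fold within strata were 35.3% (higher) and 37.7% (lower) in fibroblasts, 22.8% and 33.4% in myeloid and 51.8% and 62.6% in endothelial cells.

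Lubricin (Prg4), the glycoprotein that lubricates cartilage surfaces, shows how mix and level can cancel. Over all fibroblasts it was at 11146 (11093 to 11198) CPM in the healthy and 11488 (11408 to 11567) CPM in the arthritic library, a log2 ratio of 0.04. Within the lining gate it was 90581 (90116 to 91047) and 27920 (27689 to 28153) CPM, 3.24-fold lower in arthritis. The larger lining gate alone would have brought the class to 27250 CPM (log2 ratio 1.29), and the levels within gates alone to 6909 CPM (-0.69). Outside the lining gate Prg4 was instead higher in arthritis, at 2679 and 5557 CPM in the Sfrp4 gate and 1858 and 5398 CPM in ungated fibroblasts. The gap between lining-gated and other fibroblasts was thus smaller in the arthritic library. Lining-gated cells lay mostly in different clusters in the libraries, which touches all values given for the lining gate. The part of this difference in cells was not tested. In isotype cells Prg4 was at 54197 CPM in the lining gate. Of 9 lining genes outside the panel, 6 were at least 2-fold lower in the arthritic lining gate and 2 higher (median log2 ratio -1.70, all genes -0.07), where 6.82% of 6279 genes were lower and 6.86% higher. Lower were Prg4, Timp3, Hspb7, Tppp3, Itga6 and the complement-decay factor Cd55 (394 (364 to 426) and 98.8 (85.5 to 114) CPM). Higher were podoplanin, Pdpn (114 (97.9 to 132) and 239 (218 to 262) CPM), and Tspan6.

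Of the 4 chemokines that draw neutrophils and had enough UMIs in fibroblasts, 3 were at least 2-fold higher (median log2 ratio 3.36, all genes -0.06). Cxcl1, at far higher levels than Cxcl5 and Cxcl3, was lower over the class. Cxcl5 was counted 1 time in healthy fibroblasts and at 235 (224 to 247) CPM in arthritic ones, with UMIs in 174 cells. Cxcl3 was at 0.509 and 27.9 CPM, and in ungated fibroblasts more than 50% of its UMIs came from 1 cell. Both Cxcl5 and Cxcl3 passed the 50-UMI filter only through their arthritic counts. Cxcl1 differed by gate: it was at 2023 and 1496 CPM over the class, lower in arthritis, and at 425 (394 to 458) and 932 (890 to 975) CPM in the lining gate, higher. All 3 neutrophil chemokines with enough UMIs in the lining gate were thus higher there, Cxcl1 included. Other chemokines were 2-fold higher for 6 of 14 members and lower for 2. Ccl9, a monocyte attractant, was at 2.86 (2.09 to 3.83) and 57.3 (51.8 to 63.2) CPM, and Ccl2 at 85.7 and 185 CPM. Of Ccl5, 45% of the UMIs came from 1 cell. Moving the other way, Cxcl13, which draws B cells, was at 209.9 (203 to 217) CPM in healthy and 17.4 (14.4 to 20.8) CPM in arthritic fibroblasts. Its log2 ratio was -3.59, with -0.23 from mix alone and -3.78 within gates, and it was lower in the Smoc2 (653 and 50.9 CPM), Pi16 (370 and 11) and Sfrp4 gates (137 and 3.53).

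Acute-phase and antimicrobial genes were 2-fold higher for 5 of 8 members in fibroblasts and lower for none (median log2 ratio 1.43). The haptoglobin gene Hp was at 3.73 (1.37 to 8.12) CPM in the healthy and 1424 (1373 to 1478) CPM in the arthritic lining gate. Slpi, an inhibitor of neutrophil elastase, was at 1.53 (0.978 to 2.27) and 717 (697 to 737) CPM over the class and at 13.1 and 1636 CPM in the lining gate. These genes were higher in several gates, with Slpi at 0.147 and 311 CPM in the Sfrp4 gate, whose cells lay in different clusters in the libraries. The interleukin 6 family was not part of this pattern, with 1 of 10 members higher (Il11) and 1 lower (median 0.12). Il6 was at 131 (125 to 137) CPM in healthy and 107 (99.3 to 115) CPM in arthritic fibroblasts, and of 11 feedback genes of TNF and NF-kappaB none differed by 2-fold (median -0.07). Il1rl1, the receptor for interleukin 33, was at 1.4 and 45.5 CPM. Genes used as signs of dissociation stress had a median of -0.01 in fibroblasts, with 1 of 17 higher and none lower.

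Interferon-stimulated genes, which encode antiviral proteins and are induced by interferon signalling, were higher in arthritis in fibroblasts and in most myeloid gates. In fibroblasts 15 of 20 were at least 2-fold higher and none lower (median log2 ratio 2.77), where 5.15% of all genes were higher. In the lining gate 16 of 16 were higher (median 3.88), where 6.86% of all genes were. Some members passed the 50-UMI filter only through arthritic counts. Ifi44 had 0 and 220 UMIs in fibroblasts, and Ifi27l2a 5 and 946 in the lining gate. The numbers of higher members thus depend in part on the filter. To show the stretch of DNA through which such genes are known to be induced, promoters of Oas1a, Isg15, Cxcl3 and Ccl9 are printed, from 250 bases before to 50 after the RefSeq start in GRCm38.p6. They were picked from list members that hold the motif and are high in ratio in fibroblasts. In the interferon genes capitals mark the interferon-stimulated response element (GAAA, any 2 bases, GAAA), and in the chemokine genes the NF-kappaB motif (GGG, any 2 bases, TT, any 1 base, CC). Both strands were searched, and overlapping matches are joined. The windows lie at chr5:120907476-120907775 on the minus strand (Oas1a), chr4:156200769-156201068 on the minus strand (Isg15), chr5:90785851-90786150 on the plus strand (Cxcl3) and chr11:83578587-83578886 on the minus strand (Ccl9).
Oas1a: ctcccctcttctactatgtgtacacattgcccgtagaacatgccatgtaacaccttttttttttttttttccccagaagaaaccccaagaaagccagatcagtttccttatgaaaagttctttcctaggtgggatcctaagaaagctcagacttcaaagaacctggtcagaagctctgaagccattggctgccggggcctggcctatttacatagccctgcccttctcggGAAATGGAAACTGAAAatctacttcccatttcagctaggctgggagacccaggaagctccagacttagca
Isg15: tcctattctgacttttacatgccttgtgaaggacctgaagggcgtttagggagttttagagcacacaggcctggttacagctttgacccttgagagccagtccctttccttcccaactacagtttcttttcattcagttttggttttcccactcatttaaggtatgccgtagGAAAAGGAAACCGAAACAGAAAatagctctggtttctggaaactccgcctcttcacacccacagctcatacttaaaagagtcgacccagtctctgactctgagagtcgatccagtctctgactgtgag
Cxcl3: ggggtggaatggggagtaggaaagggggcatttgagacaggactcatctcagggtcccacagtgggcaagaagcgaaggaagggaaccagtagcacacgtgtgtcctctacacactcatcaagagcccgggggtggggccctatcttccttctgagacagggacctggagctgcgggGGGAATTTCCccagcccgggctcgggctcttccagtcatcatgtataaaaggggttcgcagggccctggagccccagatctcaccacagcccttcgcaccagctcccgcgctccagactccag
Ccl9: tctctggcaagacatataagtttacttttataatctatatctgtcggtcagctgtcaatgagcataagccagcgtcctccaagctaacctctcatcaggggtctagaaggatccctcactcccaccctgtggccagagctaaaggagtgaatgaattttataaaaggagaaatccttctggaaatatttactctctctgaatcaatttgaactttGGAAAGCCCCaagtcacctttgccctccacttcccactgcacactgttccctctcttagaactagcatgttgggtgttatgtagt

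The interferon motif was in the window of 8 of the 15 listed interferon genes with a RefSeq window (53.3%), against 3.99% of 27025 genes. The NF-kappaB motif was in that of 3 of 4 neutrophil-attracting chemokines (75%), 4 of 12 other chemokines (33.3%), 2 of 8 acute-phase genes (25%) and 0 of 9 metalloproteinases, against 5.48% of genes. The matching neutrophil-attracting chemokines were Cxcl1, Cxcl2 and Cxcl3, so Cxcl5 was not among them. A match describes the letters only. Oas1a, an antiviral synthetase whose window holds 2 overlapping matches, was at 0.572 (0.262 to 1.09) CPM in healthy and 20.7 (17.4 to 24.3) CPM in arthritic fibroblasts. Isg15, a ubiquitin-like protein with 3 matches, was at 19.6 (17.5 to 22) and 282 (269.9 to 295) CPM over the class and at 15.5 (10.1 to 23) and 445 (417 to 476) CPM in the lining gate. Both were higher within gates: of the Isg15 log2 ratio of 3.84, 3.49 was found within gates and -0.03 by mix alone. Ifi27l2a was at 3.11 (1.01 to 7.26) and 474 (445 to 506) CPM in the lining gate and 167 (145 to 191) and 1126 (1055 to 1201) in the Pi16 gate. Ifi44 had 0 UMIs in healthy and 31.4 (27.4 to 35.8) CPM in arthritic fibroblasts, at least 164-fold higher against a floor of 3 counts. Isotype fibroblasts, set against the same healthy library, had an interferon list median of 1.26, and the knockout pair 0.14. Genes of the interferon gamma list were 2-fold higher for 1 of 10 members over fibroblasts (median 0.23, or -0.0242 as a mean over cells) and for 6 of 9 in the lining gate (1.24). MHC class II genes were higher for 4 of 5 (median 1.56), at low levels: H2-Aa was 4.9 (3.86 to 6.12) and 22.5 (19.1 to 26.3) CPM, against 4739 and 6733 CPM in myeloid cells.

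Several enzymes that cut the matrix were higher in arthritis, with a higher list median in the lining gate than over the class. Their inhibitors went both ways. Of 10 metalloproteinases 5 were at least 2-fold higher in fibroblasts and none lower (median log2 ratio 0.85), where 5.15% of all genes were higher. In the lining gate 7 of 8 were higher (median 3.68, or 3.49 with genes at 0 set to their bound), where 6.86% of all genes were. Mmp12 was higher there with more than 50% of its UMIs in 1 cell. Stromelysin, Mmp3, was at 280.3 (272 to 289) and 1219.6 (1194 to 1246) CPM over the class and at 15.5 (10.1 to 23) and 504 (473 to 536) CPM in the lining gate. The collagenase Mmp13 had 0 UMIs in the healthy lining gate and 167 (149.6 to 186) CPM in the arthritic one, in 23 cells, at least 89.5-fold higher. It passed the filter there only through arthritic counts. Mmp3 was higher in tendon-like cells by more than in the lining gate (49.3 and 3533 CPM) but not in the Smoc2 gate (156 (135 to 180) and 102 (60.3 to 161)). Among inhibitors, Timp1 was higher at 243 (236 to 251) and 1271 (1244 to 1297) CPM, and Timp3, which is held in the matrix and blocks metalloproteinases and Adamts enzymes, was lower at 332 (324 to 342) and 95.6 (88.5 to 103) CPM. Timp3 was lower in each gate drawn, with 112 and 25.6 CPM in the lining gate and 527 and 226 in the Pi16 gate.

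Matrix genes divided by kind. Of 16 matrix glycoproteins and crosslinking enzymes 10 were at least 2-fold higher and none lower (median log2 ratio 1.37). Periostin, Postn, was at 112 (107 to 117) and 600.4 (582 to 619) CPM, tenascin C, Tnc, at 10.8 (9.24 to 12.6) and 164 (155 to 174), and the crosslinking enzyme Lox at 226 (218 to 233) and 655 (636 to 674). Cthrc1 was higher in the Pi16 gate (19.7 and 429 CPM) by more than in the Sfrp4 gate (132 and 212). Collagens were nearly level over the class, with 2 of 17 higher (median 0.24), and Col3a1 was at 12012 and 12173 CPM. In the lining gate, which has low collagen in the healthy library, 8 of 14 collagens were higher and 1 lower (median 1.5). There Col3a1 was at 1996 (1927 to 2066) and 7399 (7279.9 to 7519) CPM and the gelatinase Mmp2 at 104 and 803. Small leucine-rich proteoglycans, which coat collagen fibrils, were lower for 5 of 9 members and higher for 1 (median -1.15). Decorin, Dcn, the most abundant of them, was at 23792 and 10691 CPM, and Comp, a protein of tendon and cartilage matrix, at 2472 and 534.

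Some complement genes and Csf1 were lower in arthritic fibroblasts. Of 11 complement genes 4 were at least 2-fold lower, C3, C4b and Serping1 among them, and 2 higher, the macrophage genes C1qa and C1qc (median -0.40). C4b was at 922 and 248 CPM. C7, of the membrane attack complex and outside that list, was at 43.3 (40.1 to 46.7) and 2.0 (1.09 to 3.35) CPM. Csf1, the growth factor of macrophages, was at 201 (194 to 208) and 65 (59.2 to 71.2) CPM, while Tnfsf11 (RANKL), which drives osteoclast formation, was at 10.6 (9.01 to 12.3) and 30.4 (26.4 to 34.7) and its decoy receptor Tnfrsf11b at 9.92 (8.42 to 11.6) and 8.55 (6.53 to 11). The activin subunit Inhba was higher (23.5 (21.2 to 26) and 280.4 (268 to 293) CPM) and its antagonist follistatin, Fst, lower (359.7 (350.4 to 369) and 75.1 (68.8 to 81.8)). Sult1e1, which inactivates oestrogens, was at 55.3 and 2.14 CPM, and the oxidase Aox3 at 9.41 and 0.285. Most of the genes with the largest differences were found in many cells: Pcdh9, a protocadherin, had UMIs in 565 healthy and 33 arthritic fibroblasts (63.2 and 4.99 CPM) and the interleukin 13 decoy receptor Il13ra2 in 1 and 65. The exceptions were Msmp, with 95.9% of its UMIs in 1 cell, and Gal, with 56.9%. Markers of other cells were low in this class: the 11 macrophage markers summed to 331 CPM in healthy and 221 CPM in arthritic fibroblasts, with 7 of 11 at least 2-fold higher and 1 lower, and the 9 neutrophil markers to 3.31 and 18.8 CPM, with 8 of 9 at least 2-fold higher. The part of this free or doublet RNA in the low levels of C1qa, C1qc and MHC class II was not tested.

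**Figure D2:**
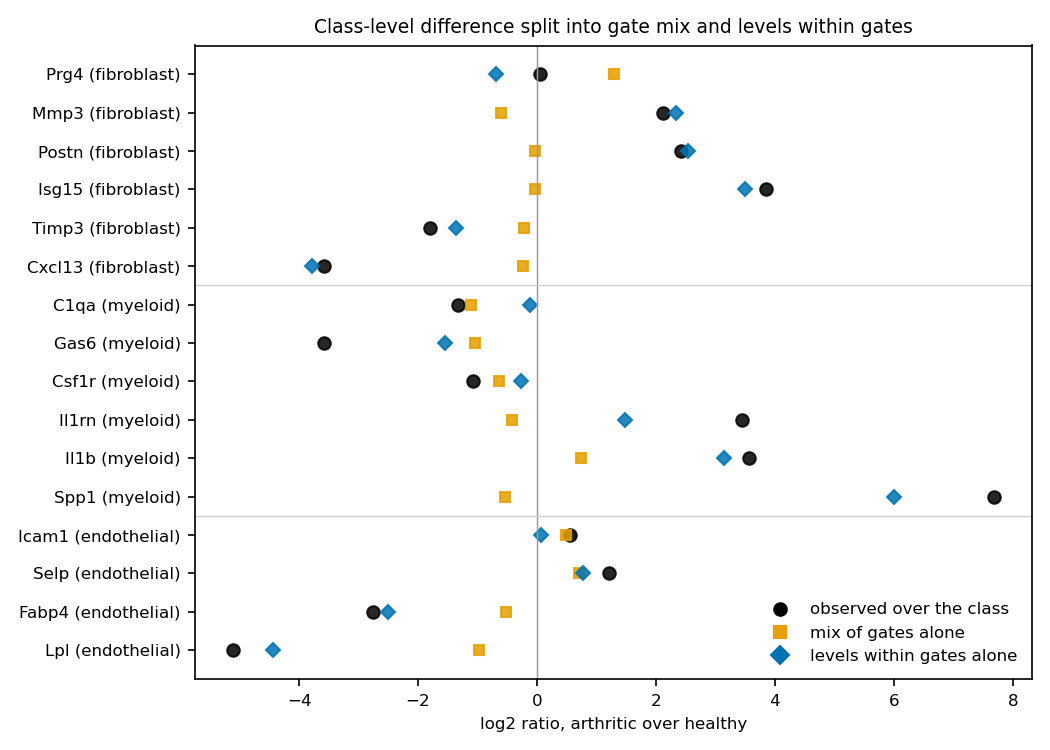
Log2 ratio of arthritic over healthy for 16 genes over their class (black circles), by gate mix alone (orange squares) and by levels within gates alone (blue diamonds). Most genes lie close to their within-gate value; Prg4 has opposite mix (1.29) and within (-0.69) values, and C1qa and Icam1 lie close to their mix value. Ungated cells and cells too shallow to gate each count as a gate. The genes were chosen after their values were seen.

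In myeloid cells, the genes that mark resident macrophages differed partly through the smaller resident gate and partly within it. Over the class, 10 of 12 resident genes outside the panel were at least 2-fold lower and 1 (Axl) higher (median log2 ratio -2.09, all genes -0.32). C1qa, a subunit of complement C1q, was at 4464 (4409 to 4520.3) CPM in healthy and 1779 (1732 to 1827) CPM in arthritic myeloid cells. It hardly differed in the resident gate (6199 (6112 to 6286) and 6271 (5948 to 6606) CPM), and of its log2 ratio of -1.33 the mix alone gave -1.10 and the gates -0.12. Csf1r, the receptor for Csf1, was alike: 841 and 398 CPM over the class and 1102 (1065 to 1139) and 946 (824 to 1082) CPM in the resident gate. Gas6, the ligand of the Axl and Mertk receptors that take up dying cells, differed both ways. It was at 763 and 63.9 CPM over the class and at 1093 (1057 to 1129.8) and 429 (348 to 523) CPM in the resident gate, with -1.04 from mix and -1.54 within. The mannose receptor Mrc1 behaved like Gas6, with 926 (893 to 960.4) and 336 (265 to 421) CPM in the resident gate. In that gate 162 of 6491 genes (2.5%) were higher and 743 (11.4%) lower, and 0 and 4 of 11 resident genes outside the panel. Without each gene's highest cell the 162 became 79, and the gate held 67 arthritic cells: its higher levels of MHC class II genes, Ccl3 and Ccl4 came from 1 cell. Fibronectin, Fn1, was higher there (230.1 (214 to 247) and 809 (696 to 935) CPM). Ccl12 (58.8 CPM healthy) and Cd209d (49.3 CPM healthy) had 0 UMIs in the resident-gated cells of the arthritic wild-type library. In isotype resident-gated cells Ccl12 was at 70.1 CPM, above the healthy level, and Cd209d at 7.79 CPM.

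Genes of alternative activation, the programme that interleukin 4 drives in macrophages, were lower for 6 of 10 members and higher for 2 (median -2.23). Retnla was at 968 (942 to 994) CPM in healthy and 1.63 (0.529 to 3.81) CPM in arthritic myeloid cells, with UMIs in 120 and 3 cells. It had 0 UMIs in the arthritic Cd209a gate (1455 CPM healthy) and in ungated cells (3586 CPM healthy, at least 854-fold lower), and mix alone gave 0.16 against -6.96 within gates. Isotype myeloid cells kept 163 CPM. Arg1 was higher, at 0.904 (0.294 to 2.11) and 63.9 (55.3 to 73.5) CPM. The lectins Cd209f (120.3 and 3.59 CPM) and Cd209g (77.9 and 2.93) and Bank1, a scaffold protein known from B cells (43 and 1.3) were among the 8 lowest ratios of the class.

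Osteopontin, thrombospondin 1 and most genes of the interleukin 1 family were higher in arthritic myeloid cells. Osteopontin, Spp1, was at 13.6 (10.7 to 17) CPM in healthy and 2807 (2748 to 2867) CPM in arthritic myeloid cells, a log2 ratio of 7.68, with -0.53 from mix alone and 6.0 within gates. It was at 12.7 (3.45 to 32.4) and 3487 (3338 to 3641) CPM in the Trem2 gate, at 0 and 2418 (2327 to 2512) CPM in the monocyte gate (at least 93.4-fold higher) and at 2.21 and 239 CPM in the resident gate. Spp1 was thus higher in each of these gates, and among the arthritic values lowest in resident cells. Thrombospondin 1, Thbs1, was at 1.09 (0.398 to 2.36) and 461 (437 to 486) CPM, with both mix (3.72) and levels within gates (6.51) on the higher side. Both of these parts rest on a healthy side of 6 UMIs in 4 cells. Of 9 genes of the interleukin 1 family 6 were at least 2-fold higher and 1 lower (median 1.68). Il1b was at 75.4 (68.3 to 83) and 896 (863 to 929.9) CPM over the class and 189.8 (119 to 287) and 1455 (1385 to 1528) in the monocyte gate. In the resident gate it was at 5.06 and 248 CPM, from 5 and 6 cells, and in the Trem2 gate at 3.17 and 268 CPM. Its antagonist Il1rn moved the same way, at 34 (29.3 to 39.2) and 372 (350.5 to 394) CPM, as did the decoy receptor Il1r2 (3.44 and 86.4). Tnf was lower (112 (103 to 121) and 48.6 (41.1 to 57) CPM), and the neutrophil chemokine Cxcl2 was close to level (1585 and 1335).

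The interferon list was higher for 19 of 22 members over myeloid cells and lower for none (median 2.80), but not in every gate. Isg15 was at 9.4 (7.02 to 12.3) and 450 (427 to 474) CPM over the class and had 0 UMIs in the 22 healthy monocyte-gated cells and 836 (783 to 892) CPM in the arthritic ones. In the resident gate it was at 10.4 (7.18 to 14.6) and 8.84 (1.07 to 31.9) CPM, and of 9 listed genes with enough UMIs there 0 were higher and 1 lower (median 0.20). In the monocyte gate 16 of 19 were higher (median 3.38, or 2.02 with genes at 0 set to their bound), where 13.2% of 2694 genes were higher and 11.2% lower. In the Trem2 gate 7 of 8 were higher (4.28, or 3.09 at the bound), where 6.64% of 2351 genes were higher and 9.32% lower. The 50-UMI filter acted differently in these gates. The resident gate held 3164472 healthy and 226134 arthritic UMIs, so genes passed mainly through healthy counts. The monocyte gate held 115926 and 1096872, so genes passed mainly through arthritic counts. The numbers of higher and lower genes per gate thus depend in part on depth. The Fc receptors Fcgr1 and Fcgr4, which bind IgG of immune complexes, were higher (43 and 265 CPM and 7.78 and 50.9), and 8 of 11 receptors of that list were within 2-fold. Slfn4, of the Schlafen family, and Ly6i, of the Ly6 family, had 0 UMIs in healthy cells and 51.2 (43.5 to 59.9) and 47.9 (40.5 to 56.3) CPM in arthritis. Ifitm1, a membrane protein that interferons induce, was at 2.53 (1.38 to 4.25) and 794 (763 to 826) CPM, and Nt5e (Cd73), which makes adenosine, at 0 and 26.4 (21 to 32.8).

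**Figure D3:**
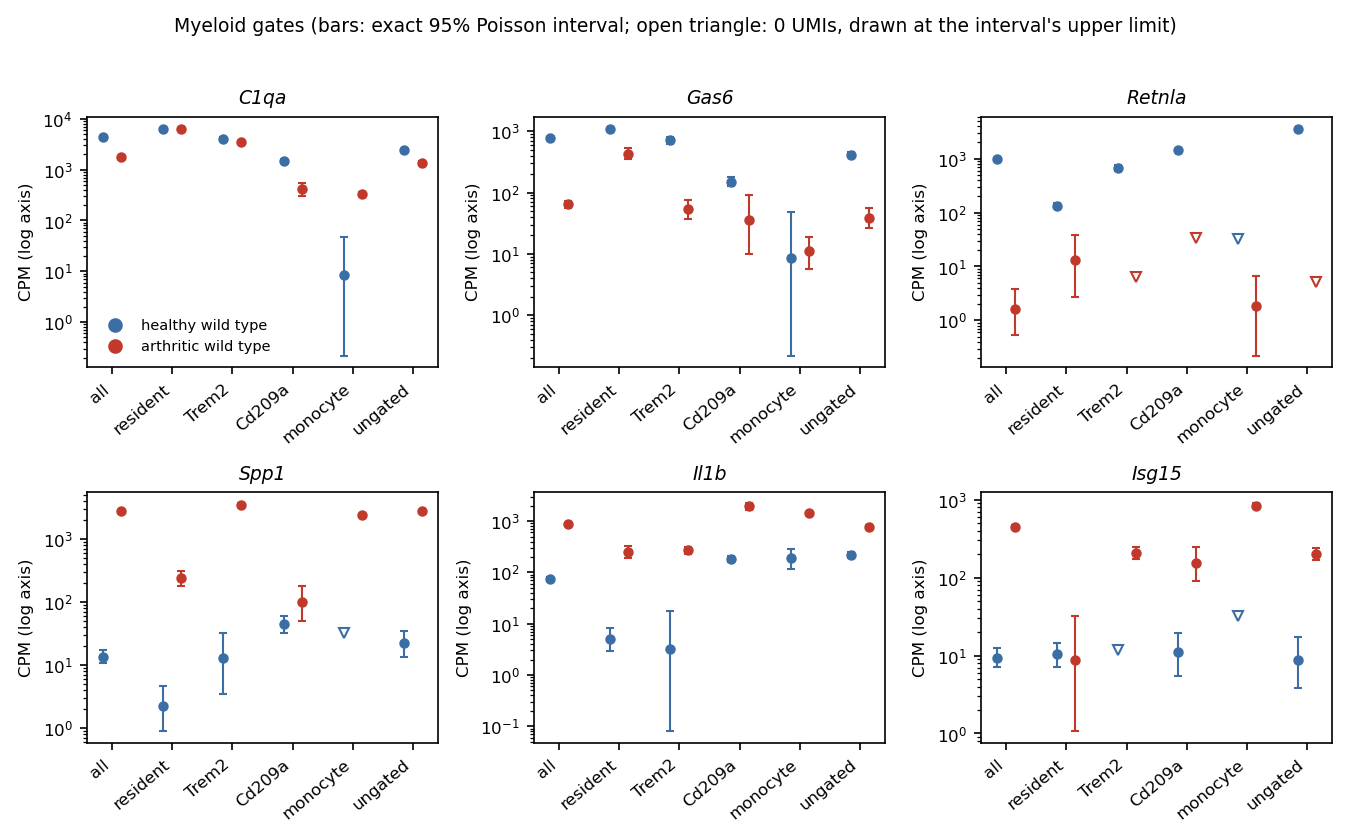
Levels of 6 genes in all myeloid cells and in 5 myeloid gates (CPM, log axis), healthy in blue and arthritic in red, with exact 95% Poisson intervals, and an open triangle at the interval's upper limit for 0 UMIs. C1qa is level in the resident gate and lower over the class, Retnla is lower in each gate with healthy UMIs, and Isg15 is higher in each gate drawn but the resident one.

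Bone-resorbing and lipid-handling genes also differed. Of 6 bone resorption genes 5 were at least 2-fold higher in myeloid cells (median 1.15). Acp5, the tartrate-resistant phosphatase of osteoclasts, was at 9.22 (6.87 to 12.1) and 258 (240 to 276) CPM and at 7.73 and 651 in ungated cells, and the collagen-cleaving cathepsin Ctsk at 47.6 (42 to 53.7) and 214 (198 to 231). The 13 genes of lipid-associated macrophages split, with 4 higher and 3 lower (median -0.15): Fabp5 was at 34.5 and 296 CPM, and Cd36, a scavenger receptor for fatty acids, at 777 and 166. In the Trem2 gate apolipoprotein E, Apoe, was at 6608 (6327 to 6898) and 17716 (17378 to 18059) CPM. Fibroblast markers in that gate summed to 2173 and 405 CPM, and its cells lay mostly in different clusters in the libraries, which touches its Apoe, Spp1 and interferon values; their part was not tested. Vegfa, which drives vessel growth, was at 2.53 (1.38 to 4.25) and 54.8 (46.8 to 63.7) CPM and the membrane-bound metalloproteinase Mmp14 at 3.8 (2.35 to 5.81) and 62.6 (54.1 to 72.1). Of 6 MHC class II genes none differed by 2-fold (median 0.43). Prostaglandin synthase Ptgs2 was higher (3.8 and 39.5 CPM) and Ptgs1 lower (12.7 and 0.978). Fibroblast markers summed to 686 CPM in healthy and 527 CPM in arthritic myeloid cells, a measure of fibroblast RNA in this class.

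Lpl, Fabp4, Cd36 and Aqp7, which serve the uptake or transport of lipids and glycerol, were lower in arthritic endothelial cells. Lipoprotein lipase, Lpl, was at 376 (328 to 430.3) CPM in healthy and 10.3 (4.45 to 20.3) CPM in arthritic endothelium, and in the capillary gate at 638 (540.3 to 749) and 23.2 (6.32 to 59.4) CPM. The fatty acid binding protein Fabp4 was at 41357 and 5385 CPM in the capillary gate and Cd36 at 4371 and 574. Aqp7, a glycerol channel, was at 523 and 17.4 CPM. All 4 were thus lower inside the gate as well as over the class: for Lpl the log2 ratio of -5.11 was -0.97 by mix alone and -4.43 within gates. The carbonic anhydrase Car4 (719 and 5.8 CPM), the inhibitor Timp4 (723 and 5.8) and the transcription factor Tcf15 over the class (345 and 15.5) were lower too. Cxcl9, a chemokine for T cells, was at 151 (120.4 to 186) and 2.58 (0.312 to 9.31) CPM. In the capillary gate 176 of 1308 genes (13.5%) were higher and 224 (17.1%) lower, over 76 healthy and 31 arthritic cells. These gated cells lay in different clusters, 81.6% of the healthy ones in a cluster led by Gpihbp1 and 93.5% of the arthritic ones in a cluster led by Lrg1 and Selp. In isotype endothelium Lpl was at 29.9 CPM and Fabp4 at 6334 CPM (25850 healthy and 3809.7 arthritic wild type).

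Apln, Aplnr, Angpt2, Col4a1 and Col18a1 were higher. Apelin, Apln, made by sprouting endothelium, had 0 UMIs in 156 healthy cells and 137 (112 to 165) CPM in arthritic ones, in 24 cells (at least 26-fold higher), and its receptor Aplnr was at 94.5 (71 to 123) and 262 (227 to 300.3) CPM. Angiopoietin 2, Angpt2, which loosens vessels, was at 22.8 (12.1 to 38.9) and 70.9 (53.4 to 92.3) CPM. The basement membrane collagens Col4a1 (247 (208 to 291) and 883 (818 to 952) CPM) and Col18a1 (68.3 (48.6 to 93.3) and 567 (515 to 623)) were higher. Receptors were not: Kdr, the main VEGF receptor, was at 390.4 (341 to 445) and 187 (158 to 220) CPM, and of 11 genes of the VEGF and angiopoietin list 3 were higher and 2 lower (median -0.49, all genes -0.00). Adhesion molecules that hold leukocytes followed the venous gate in part. P-selectin, Selp, was at 317 (272 to 367) and 735 (676 to 798) CPM over the class, with 0.71 from mix and 0.78 within, and Icam1 at 243 (205 to 287) and 359.7 (319 to 404) CPM, with 0.49 from mix and 0.07 within. In the venous gate Icam1 was at 719 (564 to 904) and 607 (507 to 720.4) CPM. E-selectin, Sele (57.8 (39.8 to 81.1) and 70.9 (53.4 to 92.3) CPM), and Vcam1 (36.8 (22.8 to 56.2) and 50.3 (35.8 to 68.7)) had overlapping intervals. Lrg1, a glycoprotein of inflamed vessels, was at 413 and 1517 CPM, and Glycam1, a ligand of L-selectin, at 0 and 236 CPM in 11 cells. The imprinted gene Mest (10.5 and 250.1 CPM), the stress-induced Nupr1 (35 and 521) and the laminin chain Lamb1 (8.75 and 142) were among the 8 highest ratios. Interferon genes were higher for 4 of 12 members and lower for 1 (median 0.39, or -0.00924 as a mean over cells), and interferon gamma genes lower for 5 of 9 (median -1.08). The 4 MHC class II genes were lower (median -2.67), but 99% of the healthy H2-Aa UMIs were in 1 cell, and without each gene's highest cell the median was 1.53. Haemoglobin transcripts, at 16971 and 0 CPM summed, came mostly from 1 healthy cell as well. Markers of other cells differed in endothelium too: fibroblast markers summed to 1784 and 740 CPM (4 of 9 lower), tendon and cartilage markers to 212 and 7.74 (7 of 10 lower), mural markers to 376 and 334 (6 of 9 lower) and neutrophil markers to 8.75 and 255 (6 of 9 higher). Their part in the endothelial differences was not tested.

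**Figure D4:**
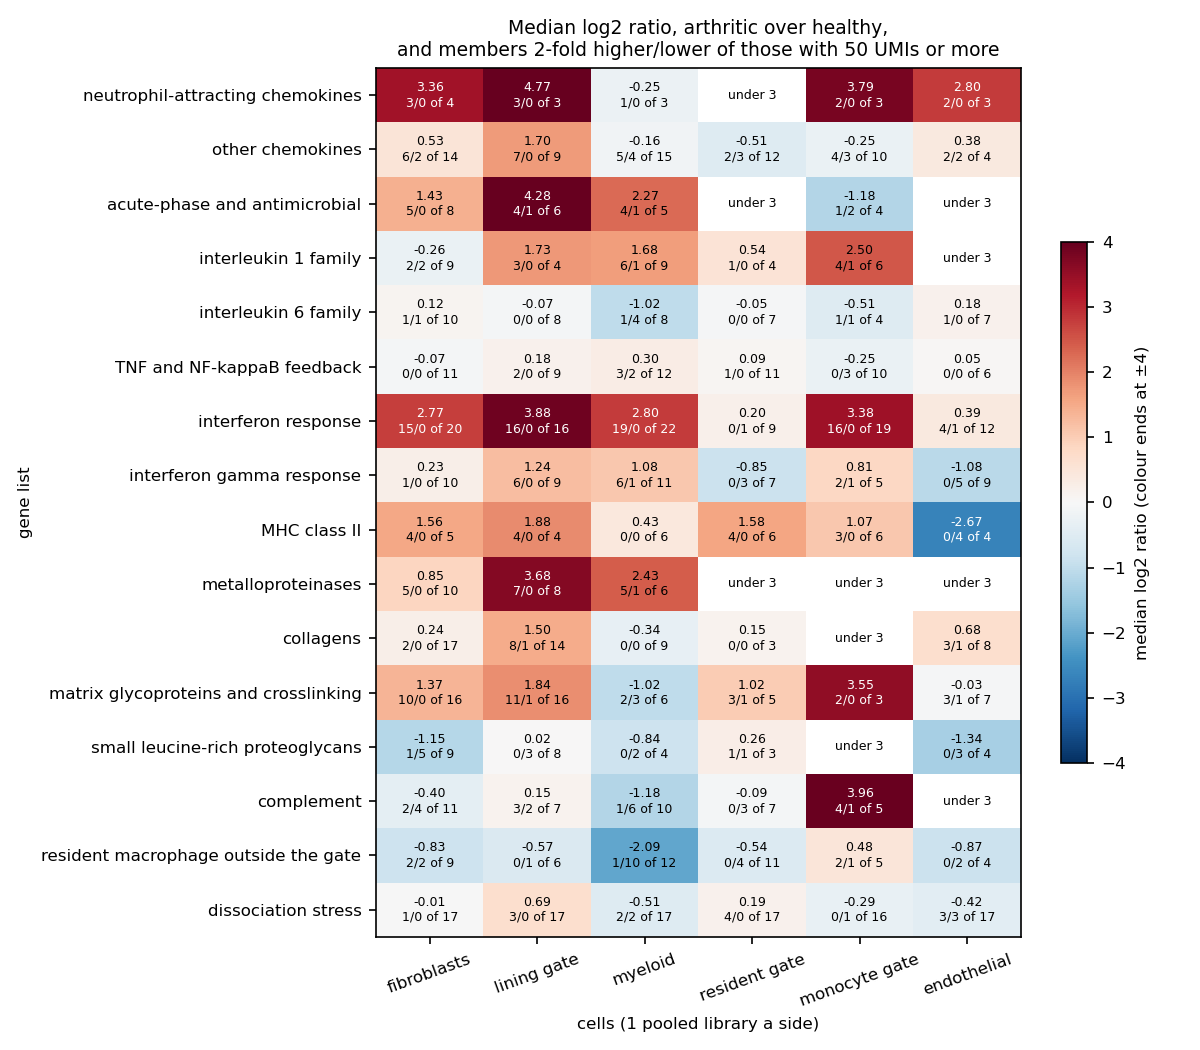
Median log2 ratio, arthritic over healthy, of 16 gene lists (rows) in 3 classes and 3 gates (columns), with the number of members at least 2-fold higher and lower of those with 50 UMIs or more (marked "under 3" where fewer than 3). Interferon genes were higher in fibroblasts, in the lining gate and in monocyte-gated cells, at 2.77, 3.88 and 3.38, and close to 0 in the resident gate (0.20), while TNF and NF-kappaB feedback genes stayed between -0.25 and 0.30. The MHC class II values of the resident gate and of endothelium rest on single cells. Genes passed the 50-UMI filter mainly through healthy counts in the resident gate and through arthritic counts in the monocyte gate.

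Few neutrophils were recovered from either library. The cluster led by neutrophil genes held 17 healthy and 87 arthritic cells, but 77 of the 87 had more UMIs of fibroblast than of neutrophil markers. The remaining 10 had S100a8 at 63745 CPM and the granule gene Ngp at 38101 CPM, and the 17 healthy ones 115193 and 24086 CPM. The 77 mixed cells had S100a8 at 2408, Il1b at 879, Ccl4 at 1093 and Ngp at 2.04 CPM together with Dcn at 9263 and Prg4 at 20448 CPM, and a median of 6379 UMIs. They were left out of the fibroblasts. Whether they are pairs of cells in 1 droplet, fibroblasts with attached or free neutrophil RNA, or something else was not tested. No cell of this kind was found in the healthy library, and 3 in the isotype library.

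In the 50 healthy and 71 arthritic T and NK cells, 91 of 890 genes (10.2%) were higher and 38 (4.27%) lower in arthritis. Granzyme A, Gzma, was at 1484 (1308 to 1677) CPM in healthy and 186 (127 to 263) CPM in arthritic cells, and Nkg7, of cytotoxic granules, at 785 (659 to 929) and 355 (271 to 456). The T cell receptor gene Trbc2 was at 878 (744 to 1029) and 785 (659 to 929.7) CPM, with overlapping intervals, and granzyme B, Gzmb, at 323 (244 to 419.9) and 477 (379 to 592). Macrophage markers summed to 1068 and 3887 CPM in these cells, with 9 of 11 at least 2-fold higher, so macrophage RNA was higher in the arthritic ones. Its part in the differences was not tested.

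The isotype library and the knockout pair give the spread that other libraries of the series show. The isotype values would share the healthy library with the wild-type comparison, so they are given as levels or shares. The exception is the interferon list median of isotype fibroblasts, a ratio to that same healthy library. Isotype fibroblasts had Mmp3 at 899 CPM, Cxcl5 at 89, Isg15 at 86.5, Postn at 958, Timp3 at 78.5 and Cxcl13 at 6.5 CPM. Each lies on the arthritic side of the healthy wild-type level. In isotype myeloid cells Spp1 was at 1813, Il1b at 370.3 and Gas6 at 139 CPM, also on the arthritic side. Ccl12 in the resident gate was not, at 70.1 CPM in isotype, 58.8 in healthy and 0 in arthritic wild-type cells. In the knockout pair, fibroblast Mmp3 was at 44.1 CPM in the healthy and 65.8 CPM in the arthritic library, Cxcl5 at 0.432 and 0.247, Isg15 at 28.4 and 27.4 and Cxcl13 at 42 and 53.5. Myeloid Spp1 was at 16.3 and 27.3 CPM and Retnla at 3266 and 1485 there. The difference between the pairs was not tested.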

How the data were processed

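The authors deposited raw UMI counts per gene and barcode, in 1 matrix per library. Cell Ranger 3.0.2 and the mouse build mm10 stand in the submitters' processing notes. The members and gene lists were chosen with earlier results of these data known. Of 5429 barcodes in both libraries, 116 over 10% mitochondrial UMIs were left out, and none had under 200 genes. Scrublet, run in scanpy 1.11.5, marked 25 of 5313 cells (0.471%), too few for a working caller, so leaving out the 3% with the highest scores was added as an alternative. All 6 libraries were clustered together on 2000 variable genes with 30 principal components, 20 neighbours and Leiden resolution 1 (leidenalg 0.10.2), and 25 clusters were named by markers of 21 cell types. In the neutrophil-led cluster, cells with more fibroblast than neutrophil marker UMIs were kept apart. Gates were set as described in the report.

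Counts were summed per library and class or gate and divided by their total. Log2 ratios carry 0.5 added UMIs, and genes needed 50 UMIs over both libraries, so a gene can pass through 1 library alone. The planned design has no test, since each group has 1 library, so calls are sizes of 2-fold. For a side at 0, folds are lower bounds that set it to 3 counts per group. The 42 lists are described by counts and medians. Genes were named by a rule: per class with 100 cells a side the 8 highest and 8 lowest ratios, per gate with 50 cells a side the 4 highest and 4 lowest, and in each list the largest rise, the largest fall and the member with the most UMIs. Predicted, mitochondrial, ribosomal, haemoglobin, immunoglobulin, sex-linked and panel genes were left out, as were genes at least 5-fold higher in another class. Genes named outside this rule were chosen after their values were seen. TMM factors came from edgeR 4.0.16 (R 4.3.3), and other work used Python 3.11.15, numpy 2.4.6, scipy 1.17.1, pandas 2.3.3 and matplotlib 3.10.9. Counts were also simulated by Poisson draws from the healthy fibroblast gate levels, at the gate totals of both libraries (10894 genes). There, 47 of 50 genes changed 3-fold were called within gates and 65 of 10481 unchanged ones (0.62%). The draws hold no spread between cells and no cells of unlike kind inside a gate. They check the calculation and give no error rate for the calls in the real libraries.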

Additional observations from a re-analysis of the deposited data

Results flagged for a closer look

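Several values moved opposite ways in the wild-type pair and in the pair of Notch3 knockout libraries, each arthritic over healthy. Such differences between pairs were not tested, since each pair has 1 library a side. The lining gate was 17.6 percentage points larger in arthritis in the wild-type pair and changed by -13.9 points in the knockout pair. The Sfrp4 gate changed by -18.0 and 6.80 points, the Smoc2 gate by -6.38 and 8.37 points and the Myoc gate by -5.28 and 3.92 points. These 4 gates were picked because the intervals of healthy and arthritic cells were apart in both pairs and the changes had opposite signs. The gene lists given below were picked for medians of opposite sign. Both are thus rules of choice and no result. The healthy libraries differ in these gates to begin with, at 7.85% lining cells in wild type and 25.4% in the knockout. The MHC class II genes of fibroblasts had a median log2 ratio of 1.56 in the wild-type pair and -1.14 in the knockout pair. Erythroid transcripts had medians of -9.18 and 2.36 in fibroblasts and -12.4 and 1.43 in endothelial cells, and they are known as RNA of red cells, which neither class makes. In healthy wild-type fibroblasts more than 50% of the UMIs of Hba-a1, Hba-a2, Hbb-bs and Hbb-bt each came from 1 cell.

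A signal outside the main comparisons was the group of 77 arthritic cells with fibroblast and neutrophil transcripts together, against 0 in the healthy library.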

How the results depend on the processing

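No paired analysis was possible because each group has 1 library and the labels give no shared replicate. Of the main values, 206 held their direction and size under their alternatives, 65 moved and 6 reversed (a list median under 0.1 in size, as for the fibroblast Wnt list, counts as moved where it changes sign); of values for named genes 141 held and 3 moved. The alternatives on doublet scores, mixed cells, highest cells and means over cells were chosen after seeing the data. Arthritic minus healthy shares, in percentage points: fibroblasts changed by -14.5 with mixed cells counted in. The endothelial share, 0.370 in the main analysis, reversed to -0.0997 with a 5% mitochondrial limit and -0.101 without the 3% highest doublet scores. Without thinning, the lining gate changed by 23.7 (main 17.6), Smoc2 by -8.37, resident by -52.6, Trem2 by 24.3 and Cd209a by -22.1. With 3 UMIs of a panel required, Sfrp4 changed by -13.7 and Trem2 by 13.7, and at 1000 UMIs monocytes by 28.6. Numbers of higher and lower genes follow the filter. With 200 UMIs required they were 421 and 605 (library), 305 and 420 (fibroblast), 263 and 558 (myeloid) and 100 and 100 (endothelial). With 1 UMI they were 2363 and 2503, 2804 and 2070, 1915 and 3342, and 2188 and 3427. At 1.5-fold they were 1446 and 2533, 1429 and 1931, 880 and 2908, and 772 and 855. Scaling moved the median myeloid gene by -0.297 log2 (TMM) or -0.287 (median of ratios): 741 higher and 797 lower genes by TMM, 812 lower by median of ratios. List medians with the mean over cells were, in fibroblasts, 2.35 (interferon), -0.0242 (interferon gamma, reversed), 0.68 (metalloproteinases), 1.08 (matrix glycoproteins), -1.05 (leucine-rich proteoglycans) and 0.41 (Wnt, against -0.08, a change of sign), in myeloid cells 0.0162 (MHC class II) and -1.09 (complement), and -0.00924 for endothelial interferon (reversed). With 200 UMIs they were -1.18 (fibroblast complement), 0.63 (Wnt, also a change of sign), 2.42 (myeloid interferon), -2.86 (alternative activation), 2.57 (interleukin 1) and -0.0318 (endothelial adhesion, reversed). By TMM, myeloid medians were -1.79 (resident), 0.67 (monocyte), 0.73 (MHC class II) and -0.89 (complement). Without each gene's highest cell, endothelial MHC class II reversed to 1.53 and erythroid transcripts were at -3.98. With 5 UMIs added, endothelial erythroid and neutrophil transcripts were at -9.11 and 3.38. Within-gate shares were 35.3% and 37.7% (fibroblast), 22.8% and 33.4% (myeloid), 51.8% and 62.6% (endothelial) and 29.8% and 39.8% (library) with clusters as strata, 53.3% for higher myeloid genes at 1000 UMIs and 74.6% for lower endothelial genes with 3 UMIs of a panel.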
